A study of Mus musculus with 12 samples.

Results

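The *HoxA* cluster genes *Hoxa3*, *Hoxa5*, *Hoxa7*, *Hoxa9*, *Hoxa10*, *Hoxa11* and *Hoxa13* were followed in ESCs that lost endogenous Ring1B and were left with no Ring1B, with a mutant Ring1B or with WT Ring1B. They were taken as every probe set annotated to 1 of these 7 symbols alone, which gave 13 of the 45037 probe sets of the array. After a filter on dim probe sets 11 of the 13 were kept, and all 7 genes were among the 16432 genes tested. *Hoxa6* had no probe set of its own, and the probe sets of *Hoxa2* and *Hoxa4* all failed the filter.

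RNA was measured on 12 Affymetrix arrays from 6 lines of mouse ESCs of 129/B6 hybrid background, with 1 array after and 1 array before 4-hydroxytamoxifen (OHT) for each line. All lines carried Ring1A-/-; Ring1B fl/fl; R26::CreERT2, so that OHT at 800 nM for 24 h activates a ubiquitously expressed Cre recombinase that deletes *Ring1B*. OHT+ arrays were made on day 2 after the start of treatment, and OHT- cells of every line still had endogenous Ring1B but no Ring1A. The lines were stable transfectants of an empty vector (mock, 1 line), of Ring1B (I53S) (#1 and #4), of Ring1B (I53A) (#1) and of WT Ring1B (#1 and #3), the Ring1B constructs being Flag-tagged and driven by the CAG promoter. I53S and I53A lie at the surface of Ring1B that binds the ubiquitin-conjugating enzyme, and the 3 lines that carry them are called the mutant lines here. ESCs of this study were grown on irradiated fibroblast feeders or on gelatin, and the sources used here do not say which was used for the arrays. Each line is 1 transfectant, and nothing in the labels says that the arrays of a line came from more than 1 culture, so p-values measure the spread between these lines only.

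*Hox* genes encode homeodomain transcription factors that set position along the body axis, and genes at the 3′ end of a cluster are used earlier and more anteriorly in the embryo than genes at its 5′ end. In ESCs the clusters are held silent by Polycomb group complexes. PRC1 contains Ring1B, which adds ubiquitin to a lysine of histone H2A, and PRC2 methylates a lysine of histone H3. The *HoxA* members are ordered below from *Hoxa3*, the most 3′ member, to *Hoxa13* at the 5′ end.

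The promoter sequences are shown for the genes that passed the test after OHT in the mock or the mutant lines (*Hoxa7*, *Hoxa9* and *Hoxa10*) and for *Hoxa13* as the end of the cluster. They are RefSeq windows of 250 bases before and 50 bases after a listed start on GRCm38.p6, all on the minus strand, and CpG dinucleotides are in capitals. For *Hoxa10* there are 2 listed starts.
*Hoxa7* (chr6:52218524-52218823): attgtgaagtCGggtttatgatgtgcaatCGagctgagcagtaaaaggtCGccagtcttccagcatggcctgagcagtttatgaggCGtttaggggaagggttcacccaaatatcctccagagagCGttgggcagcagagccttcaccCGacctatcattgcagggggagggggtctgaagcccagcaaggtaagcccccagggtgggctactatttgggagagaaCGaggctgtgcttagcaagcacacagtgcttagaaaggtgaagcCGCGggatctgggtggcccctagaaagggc
*Hoxa9* (chr6:52227321-52227620): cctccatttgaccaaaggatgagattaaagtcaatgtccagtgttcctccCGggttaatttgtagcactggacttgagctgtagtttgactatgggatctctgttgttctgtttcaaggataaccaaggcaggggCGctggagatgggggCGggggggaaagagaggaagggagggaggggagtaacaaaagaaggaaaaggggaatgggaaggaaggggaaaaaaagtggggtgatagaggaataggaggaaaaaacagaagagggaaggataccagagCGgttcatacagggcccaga
*Hoxa10*, upstream start (chr6:52240805-52241104): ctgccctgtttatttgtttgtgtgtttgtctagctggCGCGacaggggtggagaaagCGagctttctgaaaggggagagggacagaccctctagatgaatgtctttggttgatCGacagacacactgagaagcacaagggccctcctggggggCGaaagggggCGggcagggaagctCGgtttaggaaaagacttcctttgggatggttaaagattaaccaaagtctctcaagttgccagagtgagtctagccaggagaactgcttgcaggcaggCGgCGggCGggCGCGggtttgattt
*Hoxa10*, downstream start (chr6:52234890-52235189): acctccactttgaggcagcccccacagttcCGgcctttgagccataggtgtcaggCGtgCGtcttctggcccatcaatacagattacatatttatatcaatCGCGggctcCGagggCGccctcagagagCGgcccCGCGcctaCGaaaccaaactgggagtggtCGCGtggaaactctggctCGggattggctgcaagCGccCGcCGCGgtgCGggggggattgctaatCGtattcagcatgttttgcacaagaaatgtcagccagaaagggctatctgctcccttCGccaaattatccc
*Hoxa13* (chr6:52260831-52261130): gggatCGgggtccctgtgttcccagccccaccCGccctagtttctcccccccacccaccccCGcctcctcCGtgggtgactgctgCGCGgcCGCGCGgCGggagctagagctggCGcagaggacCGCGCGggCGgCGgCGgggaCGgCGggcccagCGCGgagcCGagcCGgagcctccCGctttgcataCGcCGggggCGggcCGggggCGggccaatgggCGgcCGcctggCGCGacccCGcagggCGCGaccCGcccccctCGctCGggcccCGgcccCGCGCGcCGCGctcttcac
The *Hoxa13* window held 45 CpG, a number reached by 1.93% of the 32851 windows of this length. The *Hoxa9* window held 4 CpG, which 68.6% of windows reached, and the *Hoxa7* window held 9, which 45.8% reached. The *Hoxa10* windows held 12 and 21. All 7 member genes had a window, 8 windows in all, and the median over all windows was 7 CpG. Of short motifs searched on both strands, GGGCGG was found in 3 of the 8 windows (*Hoxa9*, the upstream *Hoxa10* start and, with 6 matches, *Hoxa13*) and in 35.7% of all windows. CCAAT was found in 3 of the 8 (*Hoxa5*, the downstream *Hoxa10* start and *Hoxa13*) and in 37.4% of all windows. TATAAA was found at the downstream *Hoxa10* start alone and in 13.6% of all windows, and CATAAA at *Hoxa7* alone and in 11.9% of all windows. The listed start of *Hoxa3* lies 5′ of that of *Hoxa5*, between *Hoxa5* and *Hoxa7*.

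The values are log2 signals that were brought to a common distribution by quantile normalization, and the kept probe sets of a gene were averaged. A probe set passed the filter if it exceeded 3.94, the 30th percentile of the whole table, on at least 1 array. The limma model held a term for each line and an OHT effect for each of the mock, mutant and WT classes, and Benjamini-Hochberg adjustment ran over the 16432 genes. A gene was called at an adjusted p under 0.05. The mock class has 1 line, and its spread is assumed to be like that of the other lines. In RNA of whole cultures, fewer cells expressing a gene and less RNA per cell cannot be told apart.

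After OHT, 2 of the 7 *HoxA* genes rose in the mutant lines (*Hoxa9* and *Hoxa10*) and 2 rose in the mock line (*Hoxa7* and *Hoxa10*), while none passed the test in the WT lines. None fell. Over all genes, 4.91% rose and 1.55% fell in the mutant lines, 1.29% rose and 0.383% fell in the mock line, and 0% passed in the WT lines, where 7.61% had an unadjusted p under 0.05. The largest changes in the mock line and in the mean of the mutant lines were at *Hoxa9*, *Hoxa10* and *Hoxa11*, although *Hoxa11* was the lowest member in I53S #1 (-0.13). The median log2 change of the 7 genes was 1.76 in the mock line and 0.55, 0.40 and 0.56 for I53S #1, I53S #4 and I53A #1. It was 0.04 and -0.19 in the WT #1 and WT #3 lines. The median over all genes lay between -0.01 and 0.01 in every line, and quantile normalization holds it near 0. In values as deposited it was -0.34 in the mock and -0.13 in the mutant lines, where the medians of the *HoxA* genes were 1.45 and 0.29.

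**Figure D1:**
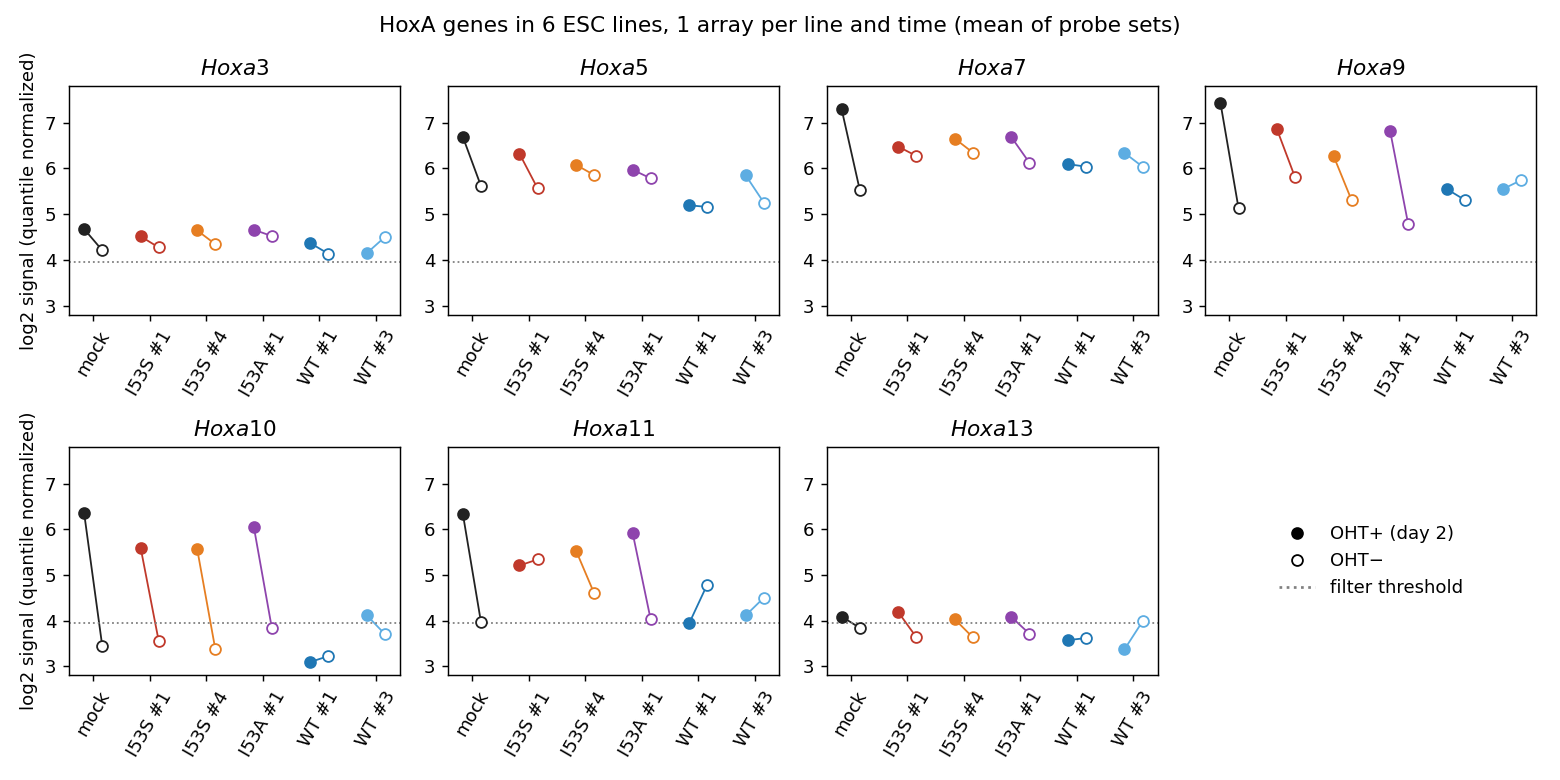
Quantile normalized log2 signal (y axis) of the 7 HoxA genes, a panel each, in the 6 lines (x axis), with OHT+ as filled points left of OHT- as open points, 1 array per point. Hoxa10 in the mock and mutant lines is at 5.56 or above in OHT+ cells and at 3.83 or below in OHT- cells, and in the WT lines it is at 4.11 or below on all 4 arrays. The dotted line is the filter threshold of 3.94, which was applied to single probe sets.

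*Hoxa10*, a regulator of limb, uterus and blood development, changed most of the members. Its log2 signal was 6.35 in mock OHT+ cells against 3.45 in mock OHT- cells. In the mutant lines it was 5.59, 5.56 and 6.05 in OHT+ cells of I53S #1, I53S #4 and I53A #1, against 3.54, 3.37 and 3.83 in their OHT- cells. WT #1 and WT #3 read 3.09 and 4.11 in OHT+ cells and 3.22 and 3.70 in OHT- cells. The OHT+ arrays of the mock and mutant lines were thus all above every other array, and the WT arrays overlapped between OHT+ and OHT-. Its kept probe set, 1431475_a_at, exceeded the filter threshold on 5 arrays, all OHT+ (mock, the 3 mutant lines and WT #3). *Hoxa10* thus entered the test only through OHT+ arrays, and the result with no filter is given below. The log2 change was 2.15 (SE 0.13, adjusted p = 0.00537 with limma) in the mutant lines, a fold of 4.44, with single lines at 2.04, 2.19 and 2.22. That change ranked 12 among the 16432 genes by size. In the mock line the log2 change was 2.90 (SE 0.22, adjusted p = 0.0245 with limma), a fold of 7.48 and rank 7. In the WT lines it was 0.14 (SE 0.16, adjusted p = 0.898 with limma), with lines at -0.13 and 0.41.

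The call of *Hoxa10* in the mutant lines was kept when each of the other lines was left out in turn, with adjusted p between 0.00553 and 0.0433 in limma. In the mock line it was lost when any other line was left out (adjusted p 0.0528 to 0.07 with limma), settings in which none of the 16308 to 16388 genes tested was called in that line, and the log2 change stayed at 2.90. With no filter, its dimmer probe set was averaged in and the log2 change in the mutant lines was 1.14, still called (adjusted p = 0.00604 with limma).

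*Hoxa9*, a regulator of blood progenitors and a known driver of leukaemia when overexpressed, also rose in the mutant lines. It read 7.44 in mock OHT+ cells against 5.13 in mock OHT- cells. In I53S #1, I53S #4 and I53A #1 it read 6.86, 6.28 and 6.82 in OHT+ cells against 5.80, 5.30 and 4.78 in OHT- cells, and in the WT lines 5.55 and 5.55 in OHT+ cells against 5.31 and 5.75 in OHT- cells. Here too the OHT+ arrays of the mock and mutant lines were above all other arrays, with the smallest gap between I53S #4 OHT+ (6.28) and I53S #1 OHT- (5.80). The log2 change was 1.36 (SE 0.23, adjusted p = 0.0299 with limma) in the mutant lines. It was 2.31 (SE 0.40, adjusted p = 0.0614 with limma) in the mock line and 0.02 (SE 0.28, adjusted p = 0.993 with limma) in the WT lines. Among the mutant lines the I53A #1 line changed by 2.04, against 1.05 and 0.97 in the I53S lines.

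The rise of *Hoxa9* was carried by 1 of its 2 probe sets. Probe set 1455626_at read 8.48 in mock OHT+ cells against 4.33 in mock OHT- cells, and 7.29, 6.64 and 7.19 in OHT+ cells of the mutant lines against 5.09, 4.79 and 3.83 in their OHT- cells. In WT cells it read 5.06 and 5.03 in OHT+ against 4.66 and 5.40 in OHT-. Its change in the mutant lines was 2.47 (SE 0.32, adjusted p = 0.0292 with limma over 37446 probe sets) and ranked 8 by size. The other probe set, 1421579_at, had a mean log2 change of 0.24 (SE 0.18, adjusted p = 0.523 with limma) in the mutant lines, with 0.47 in the mock line, and read between 5.73 and 6.52 on all 12 arrays. The positions of the probe sets within the transcripts are not given in the sources used here. With the probe set of the higher mean in place of the average, *Hoxa9* lost its call in the mutant lines (log2 change 0.24, adjusted p = 0.463 with limma), and the averaged gene lost it when any mutant or WT line was left out (adjusted p 0.0535 to 0.0989 with limma), settings in which 153 to 733 genes were called in the mutant lines in place of 1062.

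*Hoxa7*, a gene of the trunk region measured by the single probe set 1449499_at, rose in the mock line. It read 7.29 in mock OHT+ cells against 5.53 in mock OHT- cells, the highest and the lowest of the 12 arrays. In the mutant lines it read 6.48, 6.65 and 6.69 in OHT+ cells against 6.27, 6.35 and 6.12 in OHT- cells, and in the WT lines 6.10 and 6.34 against 6.04 and 6.04. Every mutant OHT+ array was thus above the 6 OHT- arrays, the closest being 6.48 in OHT+ cells of I53S #1 against 6.35 in OHT- cells of I53S #4. The log2 change was 1.76 (SE 0.19, adjusted p = 0.0329 with limma) in the mock line, 0.36 (SE 0.11, adjusted p = 0.125 with limma) in the mutant lines and 0.18 (SE 0.14, adjusted p = 0.844 with limma) in the WT lines. Without any 1 of the other lines, when no gene at all was called in the mock line, the log2 change stayed at 1.76 with an adjusted p of 0.0633 to 0.0831 in limma.

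*Hoxa11*, which patterns the forearm and the uterus, was the member with the widest spread between lines. Its probe set 1420414_at read 6.33 in mock OHT+ cells against 3.96 in mock OHT- cells. The mutant lines read 5.21, 5.53 and 5.93 in OHT+ cells of I53S #1, I53S #4 and I53A #1 against 5.34, 4.60 and 4.03 in OHT- cells, and the WT lines 3.94 and 4.11 in OHT+ cells against 4.79 and 4.50 in OHT- cells. OHT+ arrays of the mutant lines therefore overlapped with OHT- arrays, because the I53S #1 line was already at 5.34 before OHT. The changes in the mutant lines were -0.13, 0.93 and 1.90 (mean 0.90, SE 0.36, adjusted p = 0.209 with limma), that in the mock line was 2.37 (SE 0.63, adjusted p = 0.127 with limma) and those in the WT lines were -0.85 and -0.39. No change of *Hoxa11* passed the test.

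An antisense transcript of this locus, *Hoxa11os*, has its own probe set 1452400_a_at and was looked at after its values were seen. It read 6.09 in mock OHT+ cells against 3.84 in mock OHT- cells, and 4.44, 3.99 and 4.61 in mutant OHT+ cells against 3.28, 3.37 and 3.65 in mutant OHT- cells. In the WT lines it read 3.23 and 3.26 in OHT+ cells against 3.28 and 3.21 in OHT- cells. Its log2 change in the mutant lines was 0.91 (SE 0.13), and in the I53S #1 line, in which *Hoxa11* changed by -0.13, it changed by 1.15. The probe set passed the filter only through the OHT+ arrays of the mock and mutant lines, so its values are given as a description with no p. A second probe set of *Hoxa11os*, 1457646_at, failed the filter.

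*Hoxa13*, the most 5′ gene, which shapes digits and genitalia, was dim in all lines. It read 4.09 in mock OHT+ cells against 3.84 in mock OHT- cells, and 4.19, 4.03 and 4.08 in mutant OHT+ cells against 3.64, 3.63 and 3.71 in mutant OHT- cells. The WT lines read 3.57 and 3.37 in OHT+ cells against 3.62 and 3.98 in OHT- cells. The mutant OHT+ arrays were above all 6 OHT- arrays, the closest being 4.03 in OHT+ cells of I53S #4 against 3.98 in OHT- cells of WT #3. The log2 change was 0.44 (SE 0.13, adjusted p = 0.115 with limma) in the mutant lines, 0.25 (SE 0.23, adjusted p = 0.596 with limma) in the mock line and -0.33 (SE 0.16, adjusted p = 0.719 with limma) in the WT lines. *Hoxa13* was the one member whose change in the mock line did not exceed that in the other 5 lines.

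*Hoxa5*, which is needed for lung and trunk development, gave different values on its 2 probe sets. Averaged, it read 6.69 in mock OHT+ cells against 5.61 in mock OHT- cells, and 6.32, 6.08 and 5.97 in mutant OHT+ cells against 5.57, 5.86 and 5.78 in mutant OHT- cells. The WT lines read 5.19 and 5.85 in OHT+ cells against 5.16 and 5.26 in OHT- cells. The change of 0.59 in WT #3 was therefore larger than those of 0.22 and 0.19 in I53S #4 and I53A #1. Probe set 1448926_at changed by 1.80 in the mock line, by 1.41, 0.83 and 0.55 in the mutant lines and by 0.20 and 1.36 in the WT lines. Probe set 1443803_x_at, whose suffix marks probes that may also bind other transcripts, changed by 0.34, by 0.11, -0.39 and -0.17, and by -0.12 and -0.17 in the same order. Neither passed the test in the mutant lines (adjusted p = 0.141 and 0.573 with limma), and the averaged gene did not in the mutant lines (0.39, SE 0.17, adjusted p = 0.229 with limma) or the mock line (1.07, SE 0.29, adjusted p = 0.129 with limma).

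*Hoxa3*, which is needed for the thymus and parathyroid, had small changes as an average. It read 4.67 in mock OHT+ cells against 4.21 in mock OHT- cells, 4.51, 4.64 and 4.66 in mutant OHT+ cells against 4.27, 4.34 and 4.52 in mutant OHT- cells, and 4.37 and 4.15 in WT OHT+ cells against 4.13 and 4.50 in WT OHT- cells. No change was called (adjusted p = 0.361 in the mutant and 0.33 in the mock line with limma). The average of the mock line combined probe sets that moved in opposite directions. Probe sets 1427433_s_at and 1452421_at changed by 1.39 and 1.78 in the mock line, whereas 1431392_at changed by -1.77 there and by -1.43 in WT #3. In the mutant lines the 3 kept probe sets changed by between -0.34 and 0.82, and the fourth, 1429398_at, reached no more than 3.20 on any array.

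**Figure D2:**
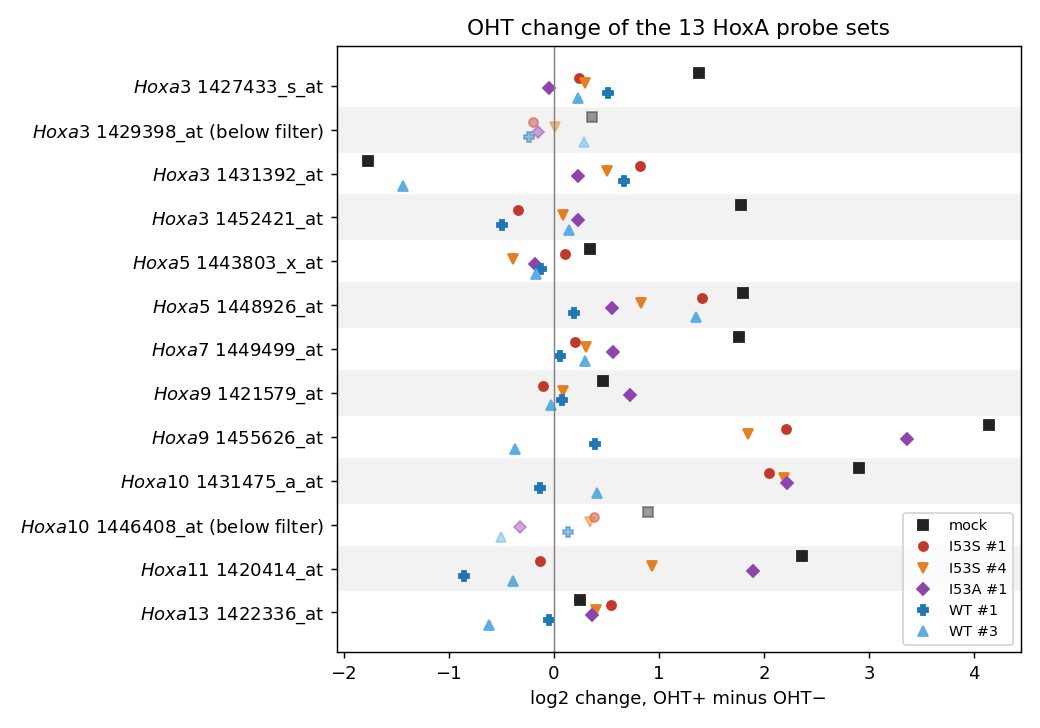
Log2 change, OHT+ minus OHT- (x axis), of the 13 HoxA probe sets (y axis, ordered along the cluster) in each of the 6 lines, 1 point per line; pale points are the 2 probe sets that failed the filter. The change of Hoxa9 is at 1.85 or above in the mock and mutant lines on 1455626_at and at 0.73 or below on 1421579_at, and the points of Hoxa5 and Hoxa3 differ between probe sets too.

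Of the 11 kept probe sets, 2 were called in the mutant lines, 1455626_at of *Hoxa9* and 1431475_a_at of *Hoxa10* (2.15, SE 0.14, adjusted p = 0.0148 with limma), where 2% of all probe sets rose and 0.577% fell. None was called in the mock or WT lines, where 0% of all probe sets were called. Probe set 1431475_a_at passed the filter only through OHT+ arrays, and with no filter the same 2 probe sets were called in the mutant lines. The second probe set of *Hoxa10*, 1446408_at, failed the filter, with a highest signal of 3.86 in mock OHT+ cells against 2.96 in mock OHT- cells.

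Across lines, 6 of the 7 genes were above 0 in all 3 mutant lines, against 24% of all genes, and *Hoxa11* was the exception. In 5 of the 7 (*Hoxa7*, *Hoxa9*, *Hoxa10*, *Hoxa13* and *Hoxa5*) the mutant OHT+ arrays were all above the OHT- arrays of these lines, against 11.3% of all genes. In 4 of the 7 (*Hoxa9*, *Hoxa10*, *Hoxa11* and *Hoxa13*) the change in every mutant line was above that in both WT lines, against 16.1% of all genes. These 4 are the most 5′ members, and *Hoxa3*, *Hoxa5* and *Hoxa7* had changes that overlapped between mutant and WT lines. *Hoxa11* did not rise in I53S #1 (-0.13) and met this rule there because both WT lines fell (-0.85 and -0.39). *Hoxa13* was near the filter threshold, and its WT #3 change was -0.61. Both WT lines were above 0 for 2 of the 7 (*Hoxa5* and *Hoxa7*), against 27.2% of all genes. The change in the mock line was above that of all 5 other lines for 6 of the 7, against 19.9% of all genes, and above 1 for 5 of the 7, against 3.85%.

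**Figure D3:**
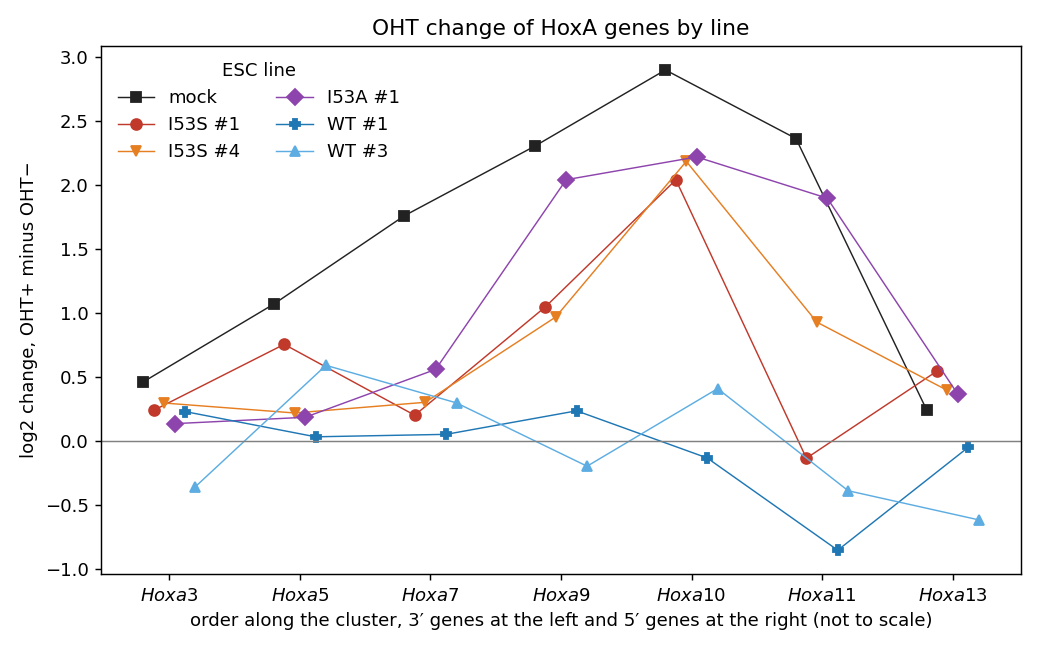
Log2 change, OHT+ minus OHT- (y axis), of the 7 HoxA genes in their order along the cluster (x axis, not to scale), 1 point per gene and line, joined by line. The mock line climbs to 2.90 at Hoxa10 and is at 0.25 at Hoxa13, the 3 mutant lines lie between 2.04 and 2.22 at Hoxa10 and between 0.14 and 0.76 at Hoxa3, Hoxa5 and Hoxa7, and the WT lines lie between -0.85 and 0.59.

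The differences between classes of lines were then tested for each gene. In the mutant minus WT comparison no *HoxA* gene passed, and neither did any other gene, while 12.6% of all genes had an unadjusted p under 0.05. The difference was largest for *Hoxa10*, at 2.01 (95% interval 1.52 to 2.51, adjusted p = 0.088 with limma), and it ranked 10 by size among all genes. It was 1.52 (0.10 to 2.93) for *Hoxa11*, 1.33 (0.43 to 2.23) for *Hoxa9* and 0.77 (0.26 to 1.28) for *Hoxa13*, with adjusted p between 0.235 and 0.372 in limma. For *Hoxa7*, *Hoxa5* and *Hoxa3* the intervals included 0, with differences of 0.18 (-0.25 to 0.61), 0.07 (-0.57 to 0.72) and 0.29 (-0.23 to 0.80). With trended and robust priors the difference of *Hoxa10* passed (adjusted p = 0.0092 with limma), a setting in which 1.66% of all genes were called.

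The mock minus WT difference was above 0 for all 7 genes, again with none called, where 0% of all genes were called and 14.4% had an unadjusted p under 0.05. The differences were 2.98 (1.08 to 4.88) for *Hoxa11*, 2.76 (2.10 to 3.43) for *Hoxa10*, 2.28 (1.08 to 3.49) for *Hoxa9* and 1.59 (1.01 to 2.17) for *Hoxa7*, with adjusted p between 0.112 and 0.209 in limma. These 4 passed with trended and robust priors, a setting in which 2.76% of all genes were called. This comparison shares its WT arrays with that of the mutant lines, so the comparisons are not independent.

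Between the mock and the mutant lines the largest interval away from 0 was that of *Hoxa7*, whose change was larger in the mock line by 1.41 (0.86 to 1.95, adjusted p = 0.485 with limma). For *Hoxa10* the mock line was larger by 0.75 (0.12 to 1.38, adjusted p = 0.569 with limma), and for the other 5 genes the intervals included 0, from -0.19 (-0.83 to 0.45) for *Hoxa13* to 1.47 (-0.33 to 3.26) for *Hoxa11*. No gene was called in this comparison, and 8.05% of all genes had an unadjusted p under 0.05. The mock line is 1 line, and no interval here shows that the mock and mutant lines changed alike.

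**Figure D4:**
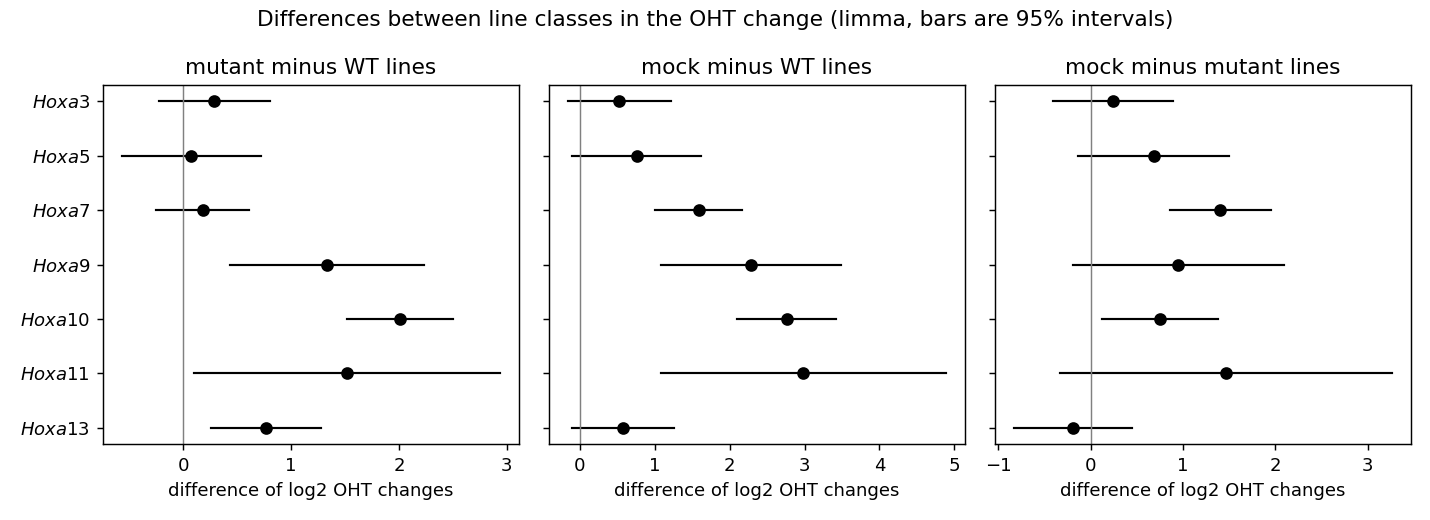
Difference of the log2 OHT change between classes of lines (x axis, separate scales) for the 7 HoxA genes (y axis), with 95% intervals from limma as bars. The interval of Hoxa10 lies above 0 in all 3 panels, and that of Hoxa7 lies above 0 for mock minus WT and mock minus mutant lines and includes 0 for mutant minus WT lines.

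The 2 mutant constructs were compared in a fit in which each had its own OHT effect. The change in the I53A line exceeded the mean of the I53S lines by 1.50 (SE 0.50) for *Hoxa11* and by 1.03 (SE 0.26) for *Hoxa9*, with 1 line against 2. Neither passed (adjusted p = 0.93 for both with limma, unadjusted 0.0306 and 0.011), and no gene of the 16432 was called, while 5.32% had an unadjusted p under 0.05. For *Hoxa10* the difference was 0.11 (SE 0.29).

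Before OHT, when all lines had endogenous Ring1B, no *HoxA* gene passed the test between mutant and WT lines, in which 0% of all genes were called. *Hoxa5* had the smallest p, with 5.57, 5.86 and 5.78 in mutant OHT- cells against 5.16 and 5.26 in WT OHT- cells, a log2 difference of 0.53 (SE 0.17, unadjusted p = 0.0146, adjusted p = 0.894 with limma). The differences of the other 6 genes lay between -0.23 for *Hoxa9* and 0.21 for *Hoxa7*. Over the 6 lines the OHT- signal of *Hoxa10* ranged from 3.22 to 3.83, all below the filter threshold. That of *Hoxa11* ranged from 3.96 to 5.34 and that of *Hoxa9* from 4.78 to 5.80, and the mock line was the lowest for *Hoxa11*. *Hoxa7* in the mock line (5.53) was the lowest of its OHT- arrays, the others lying between 6.04 and 6.35.

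Other *Hox* clusters were read in the same way. The *HoxD* genes had the highest count of calls, with 6 of 7 measured genes called in the mutant lines and 6 of 7 in the mock line, and their median log2 change was 1.46 in mutant, 2.25 in mock and 0.12 in WT lines. *Hoxd1* (2.17, adjusted p = 0.00405), *Hoxd8* (1.50, 0.00617), *Hoxd9* (1.79, 0.0115) and *Hoxd13* (1.46, 0.0055) were called in the mutant lines with limma. *Hoxd3*, looked at after its values were seen, was called in the mock line (1.29, adjusted p = 0.0408 with limma) and had a value of -0.12 (adjusted p = 0.547) in the mutant lines. Of 7 *HoxC* genes, *Hoxc4*, *Hoxc8* and *Hoxc10* rose in the mutant lines and *Hoxc10* in the mock line (medians 0.51 in the mutant, 1.04 in the mock and 0.20 in the WT lines). Of 9 *HoxB* genes, *Hoxb13* rose in the mutant lines (1.41, adjusted p = 0.0216 with limma) and *Hoxb6* in the mock line (1.55, adjusted p = 0.0366 with limma), with medians of 0.27 in the mutant, 1.07 in the mock and 0.06 in the WT lines.

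Of the genes that flank the cluster on the *Hoxa13* side 4 were measured and none was called, and their median changes were -0.05 in the mutant, -0.09 in the mock and -0.04 in the WT lines. *Hibadh*, an enzyme gene of valine breakdown, changed by -0.14 in the mock line and by -0.19, -0.49 and -0.37 in the mutant lines, and *Creb5* by -0.29 in the mock line and by 0.73, 0.90 and -0.39 in the mutant lines. *Evx1*, a homeobox gene next to *Hoxa13* that was looked at after its values were seen, changed by 1.35 in the mock line and by -0.47, 0.20 and -0.19 in the mutant lines.

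**Figure D5:**
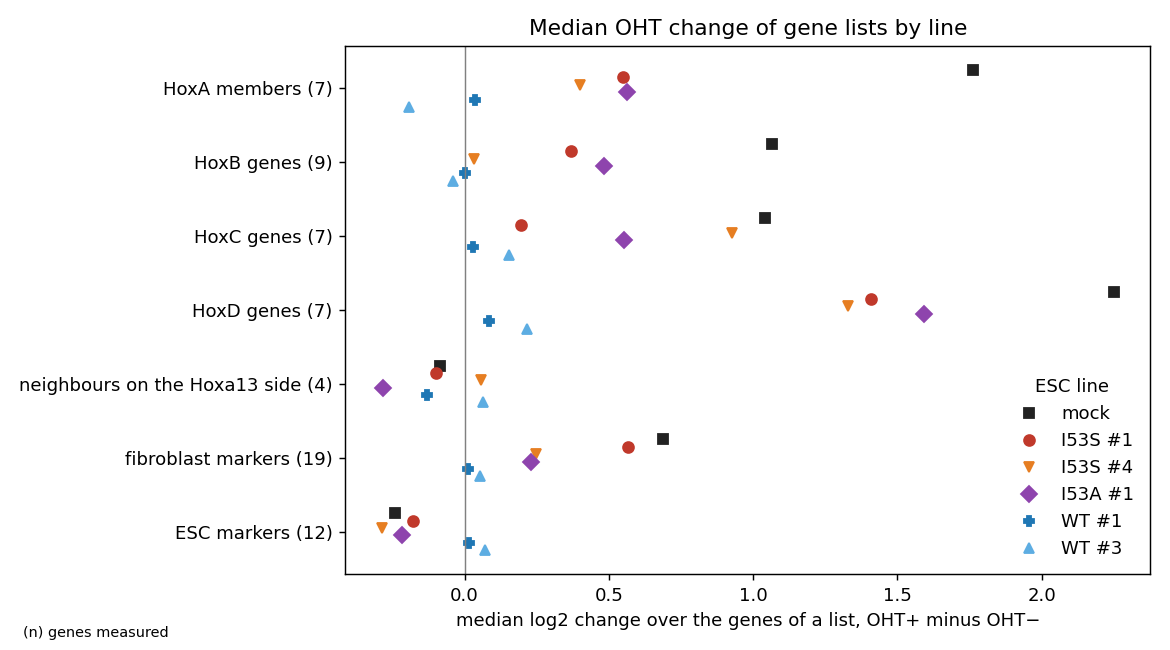
Median log2 change, OHT+ minus OHT- (x axis), of gene lists (y axis, with the number of genes measured) in each of the 6 lines, 1 point per line. The HoxA genes are at 1.76 in the mock line, between 0.40 and 0.56 in the mutant lines and at 0.04 and -0.19 in the WT lines; HoxD genes are further right in the mutant lines, and the medians of the flanking genes lie between -0.28 and 0.06.

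Among genes that act with or upstream of *Hox* genes, *Cdx1*, which activates *Hox* genes in the embryo, rose by 1.24 in the mutant lines (adjusted p = 0.0128) and by 1.95 in the mock line (adjusted p = 0.0391, both limma). *Aldh1a2*, which makes retinoic acid, rose by 1.53 in the mutant lines (adjusted p = 0.00941 with limma). These were 2 of the 10 inducers measured in the mutant lines and *Cdx1* was 1 of 10 in the mock line. *Meis1*, a cofactor that binds DNA together with Hox proteins, was 1 of 8 cofactors and rose by 0.77 in the mutant lines (adjusted p = 0.0293 with limma). Of 17 PRC1 genes, *Bmi1* and *Phc2* rose in the mutant lines (0.87 and 1.04) and in the mock line (1.43 and 1.25). None of 11 PRC2 genes or 7 trithorax genes was called in the mutant or mock lines. The PRC2 genes with the most extreme values in the mutant lines were *Phf19* at -0.25 and *Ezh1* at -0.22, the trithorax genes with the most extreme values in the mutant lines being *Dpy30* at -0.36 and *Ash2l* at -0.29.

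Embryonic fibroblasts, used as feeders, also express *Hox* genes. Of 22 fibroblast markers 19 were measured, and 17 of the 19 were above the filter threshold on all arrays. Their summed linear signal was 8227 in mock OHT+ cells against 5202 in mock OHT- cells, 2693 to 8733 in mutant OHT+ cells against 2474 to 5383 in mutant OHT- cells, and 2565 to 3036 in WT OHT+ cells against 2499 to 2798 in WT OHT- cells. The median log2 change of the markers was 0.69 in the mock line, 0.57, 0.25 and 0.23 for I53S #1, I53S #4 and I53A #1, and 0.01 and 0.05 for WT #1 and WT #3. *Thy1* was called in the mock line (1.32), where 1.29% of all genes rose. *Thy1* and *Lox* were called in the mutant lines (0.68 and 0.49), where 4.91% of all genes rose. Before OHT the markers were higher in mutant than WT lines by a median of 0.44, with 17 of 19 above 0. Before OHT the median difference of the *HoxA* genes between mutant and WT lines was 0.06. After OHT the marker medians, like the *HoxA* medians, were highest in the mock line and lowest in the WT lines. For I53S #1, I53S #4 and I53A #1 the marker medians were 0.57, 0.25 and 0.23, and the *HoxA* medians were 0.55, 0.40 and 0.56. The part of fibroblasts in the *HoxA* values was not tested.

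Markers of differentiated lineages moved in part as well. *Gata6* and *Col4a1* of 11 primitive endoderm markers, *Eomes* and *Tbx1* of 10 mesoderm markers and *Zic1* of 8 neural markers rose in mutant lines. *Gata6*, *Foxa2*, *Col4a1*, *Tbx1* and *Zic1* rose in the mock line. The signal of *Zic1* exceeded the filter threshold only on OHT+ arrays of the mock line (7.08) and the mutant lines (5.81 to 6.36). It lay between 3.11 and 3.77 on the OHT- arrays and at 3.47 and 3.75 in WT OHT+ cells. *Zic1* may thus have entered the test only through the arrays on which it was high. Its calls in the mutant and mock lines carry that limit. Over all genes, 4.91% rose in the mutant class and 1.29% in the mock line. The mutant change was above 0 for 6 of 11 primitive endoderm, 6 of 10 mesoderm and 8 of 8 neural markers. Their mutant medians were 0.28, 0.03 and 0.29, against mock medians of 0.65, 0.57 and 0.37. The WT medians were -0.04, 0.11 and -0.05 in the same order. All 12 ESC markers were above the filter threshold on every array, and 1 of them, *Klf4*, was called, rising by 0.55 in the mutant lines (adjusted p = 0.0354 with limma). Their median change was -0.28 in the mutant, -0.24 in the mock and 0.04 in the WT lines. The part of differentiating cells in the *HoxA* values was not tested.

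The genes whose signal followed the mean of the 7 *HoxA* genes most closely over the 12 arrays were *Zic1* (Pearson r 0.968), *Ebf3* (0.963), *Hoxd8* (0.958), *Fbn2* (0.958), *Fabp5* (0.957), *Foxl2os* (0.955), *Alx1* (0.953) and *Nfatc1* (0.953), of 16425 genes searched. *Zic1*, a zinc finger transcription factor of the neural plate, read 7.08 in mock OHT+ cells against 3.33 in mock OHT- cells, and 5.81, 6.36 and 6.08 in mutant OHT+ cells against 3.43, 3.47 and 3.77 in mutant OHT- cells. In all, 104 genes had r above 0.9, and the arrays share lines and OHT treatment, so these values describe the arrays and carry no test. Among the members themselves, *Hoxa9* and *Hoxa10* were most alike (r 0.89 over the 12 arrays) and *Hoxa7* and *Hoxa13* least alike (r 0.45).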

How the data were processed

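Total RNA of 12 samples (6 ESC lines, OHT+ and OHT-) was read on Affymetrix arrays. The values deposited by the authors are log2 signals of probe sets, 1 for each array. The labels name Affymetrix Expression Console and RMA, whereas the supplementary methods describe MAS5 signals and quantile normalization, and versions are not given in the sources used here. Array medians of the deposited log2 values ranged from 4.66 to 5.69, so the values were quantile normalized here. Of 45101 probe sets, 64 controls were left out, and 34945 had 1 gene symbol in the platform annotation (932 had several and 9160 none listed). The 37446 probe sets that exceeded the 30th percentile of the table (3.94) on at least 1 array were kept, and those with 1 symbol were averaged per gene (16432 genes).

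All arrays were fitted in R 4.3.3 with limma 3.58.1 (lmFit and eBayes, two-sided, 3 residual and 2.79 prior degrees of freedom). The line was the block, because the arrays of a line carry the same line number. Deviations from class means of the arrays of 1 line correlated (r 0.36 to 0.43 in mutant and 0.27 in WT lines). Adjustment was by Benjamini and Hochberg. Precision is limited by the number of arrays. The fit was tested on simulated data. Promoter windows came from a RefSeq table for GRCm38.p6. Alternatives were values as deposited, median centring, no block, 1 probe set per gene (that of highest mean), no filter, a stricter filter (mean above the median of all values), robust priors with a trend, the mutant class without I53A, and each line left out. The members and gene lists were chosen with earlier results of these data known. All probe sets of the members were named, with up to 4 called genes of each list (of a list with none called, the 2 with the largest change in the mutant lines) and the 8 genes most correlated with the member mean. The results of 1 gene list are not reported here. *Hoxa11os*, *Evx1* and *Hoxd3* were added after their values were seen. The probe sets of *Rnf2*, the gene of Ring1B, do not check the deletion, because their positions relative to the deleted part are not given in the sources used here.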

Additional observations from a re-analysis of the deposited data

Results flagged for a closer look

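*Hoxa13* changed in opposite directions in the mutant and the WT lines. Its log2 change after OHT was 0.55, 0.40 and 0.37 for I53S #1, I53S #4 and I53A #1, against -0.05 and -0.61 for WT #1 and WT #3, so that every mutant line moved up and both WT lines moved down. The difference was 0.77 (SE 0.21, adjusted p = 0.235 with limma, unadjusted p = 0.0104) and did not pass. The WT value rests largely on WT #3, whose OHT- array read 3.98, the highest of the 6 OHT- arrays, and all *Hoxa13* signals lay between 3.37 and 4.19, near the filter threshold of 3.94.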

How the results depend on the processing

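The count of *HoxA* genes called in the mutant lines was 2 as reported. It was 1 with the probe set of highest mean, with the filter on the mean at the median (which left 3 of the 7 genes, without *Hoxa10*) and with the I53S lines alone, and 1 to 2 when a line was left out. The count in the mock line was 2 as reported, 5 with trended and robust priors, 3 with arrays centred on medians (*Hoxa9* added), 0 with the I53S lines alone and 0 without any 1 of the other lines. In these last settings 0% of all genes were called in the mock line. Trended and robust priors gave 1 called gene for mutant minus WT lines and 4 for mock minus WT lines, in place of 0. Over all genes this setting called 1.66% and 2.76% in these comparisons, in place of 0%. The count of probe sets called in the mutant lines was 2 as reported, 3 with trended and robust priors (1448926_at of *Hoxa5* added), 1 with the filter on the mean at the median, 0 with the I53S lines alone and 0 to 2 when a line was left out. With the I53S lines alone, and without any 1 of the mutant lines, 0% of all probe sets were called. Without the line as a block the counts of *HoxA* genes were unaltered (2 in the mutant, 2 in the mock and 0 in the WT lines and the differences), while over all genes 563 were called in the mutant and 97 in the mock line, against 1062 and 275 with the block. Over all genes, the filter at the median gave 1777 calls in the mutant and 883 in the mock line, trended and robust priors 2219 and 1340, values as deposited 1111 and 922, and the I53S lines alone 153 and 0. In values as deposited the median of all genes was -0.34 in the mock line and -0.13 in the mutant lines.

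Sign changes occurred for uncalled values. *Hoxa13* in the mock line was -0.071 in values as deposited. With the probe set of highest mean, *Hoxa3* in the mutant lines was -0.0057, and with this setting and with the filter at the median *Hoxa5* read -0.15 in both the mutant and the WT lines (-0.0056 for their difference). *Hoxa10* in the WT lines was -0.022 with no filter, and *Hoxa5* for mutant minus WT was -0.018 in values as deposited. Leaving out a WT line gave 0.23 and -0.35 for *Hoxa3*, -0.19 and 0.24 for *Hoxa9* and -0.13 and 0.41 for *Hoxa10* in the WT lines. Leaving out a line gave -0.0062 to 0.58 for mutant minus WT of *Hoxa3* and -0.20 to 0.35 for *Hoxa5*. The cause of these changes was not tested.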
